A study of Mus musculus with 24 samples.

Results

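The nucleolar ribosome biogenesis factors are 49 genes, of 12759 transcripts listed in the count tables, whose products make the ribosomal RNA precursor and turn it into ribosomal subunits. Most of them work in the nucleolus, and some late factors of the small subunit, such as Ltv1, Nob1 and Tsr1, are known to stay on it into the cytoplasm. They were chosen by name, and every one of the 49 was found by its gene symbol in all tables and passed the filter on low counts in every comparison. By role, 7 of them serve transcription of the ribosomal DNA (Polr1a, Polr1b, Polr1c, Polr1e, Mybbp1a, Ncl, Ddx21) and 9 belong to the small nucleolar ribonucleoproteins, or snoRNPs, and their assembly (Fbl, Nop56, Nop58, Rrp9, Nhp2, Gar1, Dkc1, Nop10, Nolc1). Another 16 act in the processing of the small subunit (Nop14, Utp4, Utp14a, Utp15, Utp18, Utp20, Wdr43, Wdr75, Heatr1, Noc4l, Rrp12, Bysl, Ltv1, Nob1, Tsr1, Ddx10), and 17 in that of the large subunit (Bop1, Pes1, Wdr12, Rrs1, Rrp1, Rrp1b, Ebna1bp2, Gnl2, Gnl3, Gnl3l, Ftsj3, Noc2l, Noc3l, Nop2, Nop16, Ddx18, Ddx56).

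RNA polymerase I makes a long precursor RNA in the nucleolus, and snoRNPs then guide the methylation of its riboses and the pseudouridylation of its uridines. Large assemblies of processing factors cut the precursor and fold it with ribosomal proteins into the small and the large subunit. The kinase mTOR drives ribosome production: it raises the activity of RNA polymerase I, and it sustains translation of the mRNAs of ribosomal proteins, which start with a pyrimidine tract called the 5′ TOP motif.

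Read counts from RNA-seq and from ribosome profiling (ribo-seq), in which the mRNA pieces covered by ribosomes are sequenced, were analysed for N2a cells, a mouse neuroblastoma line. Cells labelled ctrl carried an empty vector and their genotype is given as WT. Cells labelled KO were transfected with a CRISPR vector holding 3 guide RNAs against exons 1, 2 and 4 of Eif4e3, which encodes a cap-binding protein of the eIF4E family, and were selected with puromycin as a pool and not as 1 clone. Either genotype was treated for 2 h with the vehicle DMSO or with 250 nM Torin1, an inhibitor of the mTOR kinase. Each of the 4 conditions had 3 replicates, each a different passage of the cells. Replicate 2 of the ribo-seq of ctrl cells in DMSO was not analysed here, so that group had 2 footprint libraries. The comparisons asked what Torin1 did in each genotype, what the KO did in each treatment, and whether the Torin1 response differed between genotypes.

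The 12 RNA-seq libraries held 1.70e+07 to 2.89e+07 reads and the 11 ribo-seq libraries 669010 to 5.28e+06 footprints, the fewest in ctrl DMSO replicate 3. A member had 636 (Nop10) to 65528 (Ncl) mRNA reads in a library and 18 (Polr1e) to 14789 (Ncl) footprints. Eif4e3 mRNA, the targeted gene, stood at 12.0 to 18.2 CPM (counts scaled to library size) in the ctrl libraries and at 2.89 to 5.04 CPM in the KO libraries. Of the neuroblastoma markers 11 of 13 were listed, with summed mRNA levels of 2022 to 2861 CPM in every condition, whereas the summed levels of fibroblast markers (2 of 6 listed), leukocyte markers (1 of 3) and epithelial markers (1 of 4) stayed between 0.639 and 4.08 CPM. These are bulk samples, in which fewer cells and less RNA per cell cannot be told apart.

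In ctrl cells in DMSO the mRNA level of the members, per kilobase of coding sequence, spanned 22.7 CPM (Utp14a, a small subunit processome factor) to 1093 CPM (Ncl, nucleolin), with a median of 106 CPM. Translation efficiency (TE) was taken as the footprint CPM divided by the mRNA CPM of the same replicate number. The labels do not say that this number marks the same passage in each assay. Single TE values, their SD and their overlap depend on this matching, whereas the test of TE does not use it. Mean TE over the 2 ctrl DMSO replicates was lowest for Bop1, a large subunit factor of the complex with Pes1 and Wdr12, at 0.392 ± 0.0568 (SD, n = 2), followed by Rrp9, a box C/D snoRNP protein, at 0.432 ± 0.0640. The highest TE belonged to Gar1, a box H/ACA snoRNP protein, at 3.27 ± 1.73, and to Gnl3l, a nucleolar GTPase, at 1.76 ± 0.0215. The median over the members was 0.879, and 16 of 49 had a TE above 1. Neighbours in this order were mostly not separated: of the 48 neighbouring pairs, the libraries of 1 pair did not overlap.

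Gar1 had a TE of 2.05 and 4.49 in ctrl DMSO, 2.31, 2.37 and 2.44 in ctrl Torin1, 3.04, 1.68 and 1.54 in KO DMSO, and 2.74, 2.07 and 2.35 in KO Torin1. Its DMSO replicates spread widely and overlapped with those of Torin1 in each genotype. Gnl3l had 1.77 and 1.74 in ctrl DMSO, 1.73, 1.90 and 2.05 in ctrl Torin1, 1.43, 2.36 and 1.75 in KO DMSO and 1.78, 2.10 and 2.12 in KO Torin1, and these groups overlapped as well. Neither gene passed the test for TE in any comparison with all libraries. Without ctrl DMSO replicate 1 of the ribo-seq, the TE of Gar1 in ctrl cells with Torin1 became called lower by edgeR (log2 −0.83, adjusted p = 0.0213), as did its footprints (−0.88, adjusted p = 0.000907) and those of Ncl (−0.62, adjusted p = 0.00872). In KO cells it went the other way: without ribo-seq KO DMSO replicate 1 the TE of Gar1 became called higher with Torin1 (log2 0.47, adjusted p = 0.0424, edgeR).

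At the mRNA level few members passed the test after the 2 h. With Torin1 in ctrl cells the edgeR quasi-likelihood test (Benjamini-Hochberg adjusted p under 0.05 over all transcripts) called 0 of 49 members, where it called 0.675% of all transcripts lower and 2.05% higher. At an unadjusted p under 0.05 there were 5 members, beside 2516 of 10958 transcripts. DESeq2 called 2 members lower, Nop10 (log2 −0.50, adjusted p = 0.0284) and Nhp2 (−0.40, 0.0474), and 0 higher. It called 2.31% of all transcripts lower and 4.29% higher. In KO cells 1 member was called lower and 0 higher, where 3.74% of all transcripts were lower and 6.23% higher. The members' mRNA had a median log2 change of −0.03 in ctrl and 0.03 in KO cells, against 0.00 and −0.00 for all transcripts. These medians were 0.03 without RNA-seq ctrl DMSO replicate 2 and −0.00 without RNA-seq KO Torin1 replicate 3, on the other side of 0. Every member's estimate lay within 0.5 of 0. Among the roles, the mRNA change of all 9 snoRNP genes was below 0 in ctrl cells (median −0.07) and of 7 of 9 in KO cells (median −0.14). Of these 9, 0 were called in either genotype. The mRNA change was also below 0 for 80 of 81 ribosomal proteins in ctrl (median −0.28) and 76 in KO cells (median −0.07). Of all transcripts, 5430 of 10958 in ctrl and 5614 of 11004 in KO cells were below 0.

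The member called in KO cells was Rrs1, described here because of that call, a single-exon gene for a factor that brings the 5S particle into the large subunit. Rrs1 mRNA stood at 57.8, 64.6 and 62.3 CPM in KO DMSO and 48.98, 53.5 and 46.7 CPM in KO Torin1, and these libraries did not overlap. Its log2 change was −0.30 ± 0.08 (SE; adjusted p = 0.0422, edgeR). The call was lost without KO RNA-seq DMSO replicate 1 or 3 or Torin1 replicate 1, 2 or 3 (adjusted p = 0.0726 to 0.175, edgeR). Without scaling beyond library size it was lost too (adjusted p = 0.0579, edgeR), and the only member called was then Gnl2, a nucleolar GTPase, which was higher (log2 0.26, adjusted p = 0.0333, edgeR). In ctrl cells its levels were 58.1, 56.5 and 64.3 CPM in DMSO and 46.2, 52.5 and 51.5 CPM with Torin1 (log2 −0.25, adjusted p = 0.239, edgeR). Without RNA-seq ctrl DMSO replicate 3, 4 members were called in ctrl.

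Footprints on the members moved in either direction. With Torin1 in ctrl cells, 6 members were called lower and 3 higher, where 9.93% of all transcripts were lower and 5.69% higher. In KO cells 9 members fell and 11 rose, where 22.1% of all transcripts were lower and 18.5% higher. Members' footprints had a median log2 change of 0.09 in ctrl and 0.08 in KO cells, with a range of −1.19 to 0.82 and of −1.41 to 0.66. Without scaling beyond library size, which moved the median of all transcripts from 0.02 to 0.23 in ctrl and from 0.02 to 0.26 in KO cells, ctrl cells had 1 member lower and 12 higher, where 6.4% of all transcripts were lower and 15.8% higher. KO cells then had 5 lower and 28 higher, where 14.2% of all transcripts were lower and 34.8% higher, and the members' medians were 0.30 and 0.33. Of the 6 decreases in ctrl, that of Polr1c kept its call without scaling. Of the 9 in KO cells, those of Bysl (adjusted p = 0.135), Ddx21 (0.117), Nob1 (0.538) and Nop10 (0.0502, edgeR) lost theirs. The ctrl count of 9 was 2 without ribo-seq ctrl Torin1 replicate 2 and 3 without replicate 3.

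TE, the footprint change relative to the mRNA change in 1 model, passed the test for fewer members. In ctrl cells 2 members fell and 1 rose with Torin1, where 4.29% of all transcripts were called lower and 0.383% higher. In KO cells 7 fell and 7 rose, where 17.8% of all transcripts were lower and 10.6% higher. The members' median log2 change of TE was 0.06 in ctrl (−0.02 without ribo-seq ctrl DMSO replicate 1) and 0.04 in KO cells, beside −0.01 and −0.01 for all transcripts. With library size as the only scaling, the median of all transcripts was 0.16 and 0.24 and that of the members 0.23 and 0.28. Ctrl cells then had 1 member lower and 3 higher, where 3.12% of all transcripts were lower and 1.75% higher. KO cells had 3 lower and 21 higher, where 11.3% of all transcripts were lower and 25.6% higher. The ctrl count of 3 was 1 without ribo-seq ctrl DMSO replicate 3 or without RNA-seq ctrl Torin1 replicate 1 or 3. Changes are therefore given relative to the bulk of transcripts, and the 3 members lower in KO cells under either scaling were Polr1c, Noc2l and Noc4l.

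The other genes of ribosome production are given as a contrast. Of the 81 cytosolic ribosomal proteins 78 fell in TE in ctrl and 79 in KO cells, with median log2 changes of −1.72 and −2.04. In Rpl27a, for example, the log2 change was −2.88 in ctrl cells and −3.38 in KO cells, while Rplp0 had −2.22 and −2.81. Of 97 other ribosome biogenesis genes, 3 fell and 0 rose in ctrl cells (median 0.04), and 13 fell and 10 rose in KO cells (median 0.11). A TE change within 0.5 of 0 was found for 44 of 49 members in ctrl and 40 in KO cells, for 1 and 2 of the ribosomal proteins, and for 91 and 82 of the other biogenesis genes. A 95% interval of the TE change was built from the SE with the normal distribution, which makes it narrower than the F test implies. It lay within 1 of 0 for 45 members in ctrl and 46 in KO cells. Npm1 (nucleophosmin), a nucleolar protein outside the 49, had TE changes of −1.47 and −1.57.

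**Figure D1:**
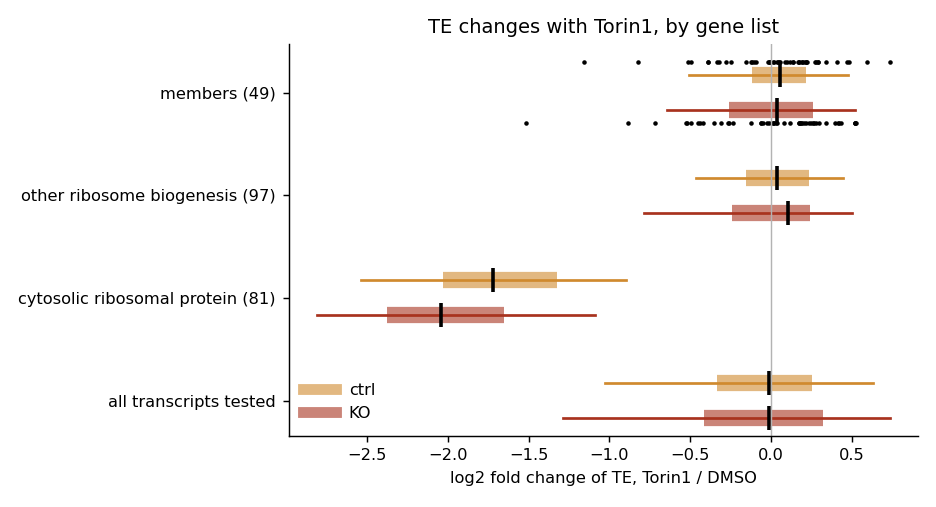
Log2 change of TE with Torin1 in ctrl and in KO cells (edgeR) for the 49 members, other ribosome biogenesis genes, cytosolic ribosomal proteins and all transcripts tested; boxes span the quartiles, lines the 5th to 95th percentiles, black bars mark the medians and dots the members. The members lie around 0 (medians 0.06 and 0.04) and the ribosomal proteins well below (medians −1.72 and −2.04).

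The sequence at the annotated transcription start was read for the same gene lists. Promoters from RefSeq (GRCm38.p6) matched 43 of the 49 members by symbol. A C at the annotated start followed by 4 bases that are each C or T, read on the transcribed strand, was found in 0 of 43 members, 2 of 82 other biogenesis genes (2.44%), 14 of 60 ribosomal proteins (23.3%) and 813 of 27025 promoters in all (3.01%). An annotated start can differ from the start used in N2a cells, so a missing match says only that these letters are not at that base. The 30 bases around the annotated start, 10 before it and 20 from it, are shown for 7 of the 14 members called in TE in KO cells, with 5 lower and 2 higher, and for ribosomal protein genes as a contrast, a choice made after the values were seen. Capitals mark the base at the start, or the unbroken pyrimidine run that begins there.
Polr1c, chr17:46248026-46248055, minus strand: aagatctcgcGacattcaagattgcgggag
Ddx21, chr10:62602279-62602308, minus strand: aggcccggctGaggggcggtccgctttctc
Noc2l, chr4:156236000-156236029, plus strand: aggcattctgGgcccggaagtgcggcgcac
Noc4l, chr5:110653363-110653392, minus strand: ctcggcgcacActtcggtttccaggaaccg
Nob1, chr8:107425019-107425048, minus strand: gtctgtccttGacagccaacatggcgccgg
Gnl3, chr14:31019112-31019141, minus strand: atccaacctgTggccgccaggcgagcccgg
Nop58, chr1:59684996-59685025, plus strand: gctgctccacGaggagaggtgtggagcggc
Rps6, chr4:86857348-86857377, minus strand: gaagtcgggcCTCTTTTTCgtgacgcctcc
Rpl27a, chr7:109519185-109519214, plus strand: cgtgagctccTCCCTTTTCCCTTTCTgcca
In Rps6 and Rpl27a the start opens a long pyrimidine run. In Rpl27a that run begins with T and so was not counted by the rule above. None of the 7 members shown starts with C, whereas 3 of the 43 members with a promoter do (Ncl, Tsr1 and Wdr75). The start of Eef2, an elongation factor gene that was also read, is a G with a pyrimidine run of 0. Rps6 fell in TE by 1.47 in ctrl and 1.73 in KO cells on the log2 scale.

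Among the genes for rDNA transcription, Polr1c, a subunit shared by RNA polymerases I and III (chr17:46243920-46248054, minus strand, 9 exons, GRCm38), showed the strongest TE decrease of all members. Its TE was 1.14 and 1.24 in ctrl DMSO, 0.50, 0.451 and 0.489 in ctrl Torin1, 1.10, 0.845 and 0.889 in KO DMSO, and 0.318, 0.345 and 0.333 in KO Torin1. All Torin1 libraries lay below all DMSO libraries in each genotype. The log2 change was −1.16 ± 0.20 in ctrl (adjusted p = 0.000776) and −1.52 ± 0.15 in KO cells (adjusted p = 1.62e-08, edgeR), and it stayed called without any single library. Its footprints went from 168 and 196 CPM to 83.2, 71.7 and 81.7 CPM in ctrl, and from 146, 132 and 118 CPM to 49.8, 51.7 and 49.1 CPM in KO cells. Polr1c mRNA was not called (log2 −0.03 in ctrl and 0.11 in KO cells).

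Ddx21, a DEAD-box RNA helicase of the nucleolus described here because it was called in either genotype (a choice made after its values were seen), fell less. Its TE was 0.748 and 1.18 in ctrl DMSO, 0.50, 0.565 and 0.626 in ctrl Torin1, 0.806, 1.10 and 0.886 in KO DMSO, and 0.646, 0.697 and 0.639 in KO Torin1. The groups did not overlap in either genotype. The log2 change was −0.82 ± 0.21 in ctrl (adjusted p = 0.0236) and −0.52 ± 0.13 in KO cells (adjusted p = 0.00324, edgeR). In ctrl it rested on single libraries: it was −0.50 (adjusted p = 0.170) without ribo-seq ctrl DMSO replicate 3, and was also lost without ribo-seq ctrl Torin1 replicate 1 or 2 or RNA-seq ctrl Torin1 replicate 1 or 3 (adjusted p = 0.0546 to 0.0895, edgeR). Without scaling it was called in neither genotype (−0.65, adjusted p = 0.0958 in ctrl; −0.27, adjusted p = 0.0890 in KO, edgeR), and with limma-voom the ctrl change was not called (adjusted p = 0.0515).

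Polr1a, the largest subunit of RNA polymerase I, was the member of this role with the greatest TE increase. Its TE was 0.591 and 0.605 in ctrl DMSO, 0.553, 0.713 and 0.717 in ctrl Torin1, 0.434, 0.624 and 0.634 in KO DMSO, and 0.618, 0.853 and 0.820 in KO Torin1. The groups overlapped, and the TE change was not called (0.19, adjusted p = 0.712 in ctrl; 0.40, adjusted p = 0.0698 in KO, edgeR). In KO cells it became called higher with the replicate number as a block (0.00697) and without scaling (0.00406, edgeR). It did so too without ribo-seq KO DMSO replicate 3, ribo-seq KO Torin1 replicate 1 or RNA-seq KO DMSO replicate 2 (0.0140 to 0.0486, edgeR). Its footprints rose in KO cells by 0.45 ± 0.13 (adjusted p = 0.00781, edgeR), a call lost without ribo-seq KO DMSO replicate 1 (0.0580) or Torin1 replicate 2 (0.0756). The other members of this role, the polymerase subunits Polr1b and Polr1e, the transcription regulator Mybbp1a and Ncl, were not called in TE in either genotype, with log2 changes of −0.35 to 0.19.

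Of the 9 snoRNP genes, 0 fell and 2 rose in TE in KO cells, where 17.8% of all transcripts were lower and 10.6% higher. In ctrl cells 0 of the 9 were called, where 4.29% of all transcripts were lower and 0.383% higher. Nop58, a core protein of box C/D snoRNPs whose gene holds 4 snoRNA genes (chr1:59684971-59719044, plus strand), had a TE of 0.921 and 1.32 in ctrl DMSO, 1.45, 1.56 and 1.73 in ctrl Torin1, 1.11, 1.28 and 1.11 in KO DMSO, and 1.72, 1.68 and 1.73 in KO Torin1. The Torin1 libraries were higher without overlap in each genotype. The log2 TE change was 0.48 ± 0.19 in ctrl (adjusted p = 0.177) and 0.53 ± 0.12 in KO cells (adjusted p = 0.00151, edgeR). Its footprints rose in each genotype, by 0.47 ± 0.14 (adjusted p = 0.0341) in ctrl and 0.47 ± 0.11 (adjusted p = 0.000674, edgeR) in KO cells. The ctrl call was lost without ribo-seq ctrl DMSO replicate 1 (0.202) or ctrl Torin1 replicate 2 (0.153) or 3 (0.160). Nolc1, a chaperone of snoRNP assembly, also rose in TE in KO cells, by 0.42 ± 0.12 (adjusted p = 0.0122, edgeR).

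Fbl, the methyltransferase of box C/D snoRNPs, and Rrp9 fell in footprints in ctrl cells. Fbl footprints were 453 and 641 CPM in ctrl DMSO and 360, 345 and 366 CPM in ctrl Torin1, a log2 change of −0.60 ± 0.15 (adjusted p = 0.0136, edgeR) without overlap, lost without ctrl DMSO replicate 3 or ctrl Torin1 replicate 2 or 3 (adjusted p = 0.0691 to 0.0840). Rrp9 had the largest TE decrease of this role in ctrl, with 0.477 and 0.387 in DMSO and 0.245, 0.340 and 0.327 with Torin1, but the change of −0.39 ± 0.23 was not called (adjusted p = 0.420, edgeR). Its TE in KO cells, 0.502, 0.344 and 0.358 in DMSO and 0.316, 0.362 and 0.351 with Torin1, overlapped. The footprint call of Rrp9 in ctrl (−0.59 ± 0.19, adjusted p = 0.0465, edgeR) was kept only when ctrl DMSO replicate 3 was the library left out, and was lost without ctrl DMSO replicate 1 or ctrl Torin1 replicate 1, 2 or 3 (adjusted p = 0.106 to 0.353).

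The box H/ACA proteins showed smaller or unequal values. Nop10, the smallest of them, had a TE of 1.35 and 0.733 in ctrl DMSO, 1.34, 1.14 and 0.776 in ctrl Torin1, 1.48, 1.30 and 1.54 in KO DMSO and 0.840, 1.04 and 1.4 in KO Torin1, which overlapped in each genotype. Its TE change was −0.09 ± 0.33 in ctrl (adjusted p = 0.934) and −0.44 ± 0.17 in KO cells (adjusted p = 0.0603, edgeR). The KO change became called lower with DESeq2 (0.0488) and with the replicate number as a block (0.0404, edgeR). It did so too without ribo-seq KO Torin1 replicate 3 (0.0170) or RNA-seq KO DMSO replicate 2 (0.0215, edgeR). Nop10 footprints fell in KO cells from 67.2, 65.1 and 67.7 CPM to 36.1, 43.6 and 53.7 CPM (−0.61 ± 0.15, adjusted p = 0.00159, edgeR), and without scaling the call was lost (−0.36, adjusted p = 0.0502, edgeR). Nop10 mRNA went from 54.0, 58.2 and 41.9 CPM in ctrl DMSO to 36.1, 35.9 and 37.3 CPM in ctrl Torin1. It was not called in the main fit but was called lower with DESeq2 (0.0284). Dkc1, the pseudouridine synthase, rose in footprints in KO cells by 0.35 ± 0.11 (adjusted p = 0.0139, edgeR), a call lost without ribo-seq KO DMSO replicate 2 (0.0528) or Torin1 replicate 1 (0.0824). Its TE, not called in the main fit, was called higher in KO cells with DESeq2 (log2 0.35, adjusted p = 0.0321) and with the replicate block (0.0339, edgeR).

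Of the 16 genes of small subunit processing, 3 fell (18.75%) and 2 rose (12.5%) in TE in KO cells. These shares were near those of all transcripts, of which 17.8% were lower and 10.6% higher. In ctrl cells 0 of the 16 were called, where 4.29% of all transcripts were lower and 0.383% higher. Noc4l, the partner of Nop14 (chr5:110648418-110653417, minus strand), had a TE of 0.540 and 0.394 in ctrl DMSO, 0.381, 0.307 and 0.333 in ctrl Torin1, 0.483, 0.431 and 0.473 in KO DMSO, and 0.287, 0.266 and 0.306 in KO Torin1. No DMSO library reached down to a Torin1 library of its genotype. The log2 change was −0.39 ± 0.24 in ctrl (adjusted p = 0.449) and −0.72 ± 0.16 in KO cells (adjusted p = 0.00116, edgeR). Rrp12, an export and maturation factor, fell in TE in KO cells by 0.53 ± 0.13 (adjusted p = 0.00406, edgeR), with footprints of 133, 134 and 131 CPM in DMSO and 78.0, 83.3 and 94.9 CPM with Torin1. Without scaling beyond library size the Rrp12 TE call was lost (adjusted p = 0.0970, edgeR).

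Nob1, the endonuclease that makes the last cut of the small subunit RNA (chr8:107412486-107425051, minus strand), had a TE of 0.839 and 0.918 in ctrl DMSO, 0.723, 0.808 and 0.792 in ctrl Torin1, 0.879, 0.768 and 0.812 in KO DMSO, and 0.540, 0.635 and 0.701 in KO Torin1. The Torin1 libraries lay lower without overlap in each genotype, by little in ctrl. Its TE change was −0.12 ± 0.18 (adjusted p = 0.810) in ctrl and −0.42 ± 0.14 in KO cells (adjusted p = 0.0245, edgeR). The KO call was lost without scaling (0.341) and without ribo-seq KO DMSO replicate 1, ribo-seq KO Torin1 replicate 1 or 2, or RNA-seq KO Torin1 replicate 1 (adjusted p = 0.0543 to 0.0830, edgeR).

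Utp20, a large scaffold protein spread over 62 exons (chr10:88746607-88826804, minus strand), rose. Its TE was 0.477 and 0.438 in ctrl DMSO, 0.478, 0.668 and 0.616 in ctrl Torin1, 0.353, 0.623 and 0.393 in KO DMSO, and 0.581, 0.707 and 0.683 in KO Torin1. The KO groups overlapped, and the ctrl groups were barely apart. TE changed by 0.29 ± 0.23 in ctrl (adjusted p = 0.595) and 0.52 ± 0.17 in KO cells (adjusted p = 0.0260, edgeR). The KO call was lost without ribo-seq KO DMSO replicate 1, ribo-seq KO Torin1 replicate 2 or 3, RNA-seq KO DMSO replicate 1 or 3 or RNA-seq KO Torin1 replicate 2 (adjusted p = 0.0518 to 0.103, edgeR). Utp20 footprints rose in each genotype, by 0.57 ± 0.17 (adjusted p = 0.0334) in ctrl and 0.66 ± 0.13 (adjusted p = 0.000146, edgeR) in KO cells, the former lost without ribo-seq ctrl DMSO replicate 1 (0.359) or ctrl Torin1 replicate 2 (0.164) or 3 (0.162).

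Ddx10, an RNA helicase, rose in TE in KO cells by 0.43 ± 0.14 (adjusted p = 0.0228, edgeR), lost without RNA-seq KO DMSO replicate 3 or KO Torin1 replicate 1 or 2 (0.0565 to 0.0638). Bysl, a late small subunit factor, fell in footprints in ctrl by 0.59 ± 0.17 (adjusted p = 0.0238) and in KO cells by 0.50 ± 0.14 (adjusted p = 0.00428, edgeR), but the ctrl call was lost without ribo-seq ctrl DMSO replicate 1 or ctrl Torin1 replicate 1, 2 or 3 (0.0514 to 0.111). Nop14 footprints rose in KO cells by 0.34 (adjusted p = 0.0302, edgeR), lost without KO DMSO replicate 1 or 3 or KO Torin1 replicate 1 or 2 (0.0789 to 0.179). The member with the largest TE increase of this role in ctrl was Ltv1, a nuclear export adaptor, with 0.782 and 1.28 in DMSO and 1.47, 1.33 and 1.27 with Torin1, and the one with the largest decrease was Utp14a, with 0.481 and 1.01 in DMSO and 0.295, 0.470 and 0.530 with Torin1. These overlapped and neither was called (Ltv1 0.47 ± 0.21, adjusted p = 0.261; Utp14a −0.49 ± 0.31, adjusted p = 0.468, edgeR). In KO cells Ltv1 went from 1.14, 1.09 and 1.01 to 1.41, 1.26 and 1.21 and Utp14a from 0.709, 0.700 and 0.480 to 0.387, 0.559 and 0.409, again not called (adjusted p = 0.156 and 0.0616, edgeR). Without scaling Ltv1 became called higher in KO cells (0.00279, edgeR). Utp14a became called lower with DESeq2 (0.0487), the replicate block (0.0379, edgeR), or without ribo-seq KO DMSO replicate 3, ribo-seq KO Torin1 replicate 2 or RNA-seq KO DMSO replicate 3 (0.0180 to 0.0423, edgeR). In footprints, 4 of the 16 members of this role fell and 3 rose in KO cells, where 22.1% of all transcripts were lower and 18.5% higher.

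**Figure D2:**
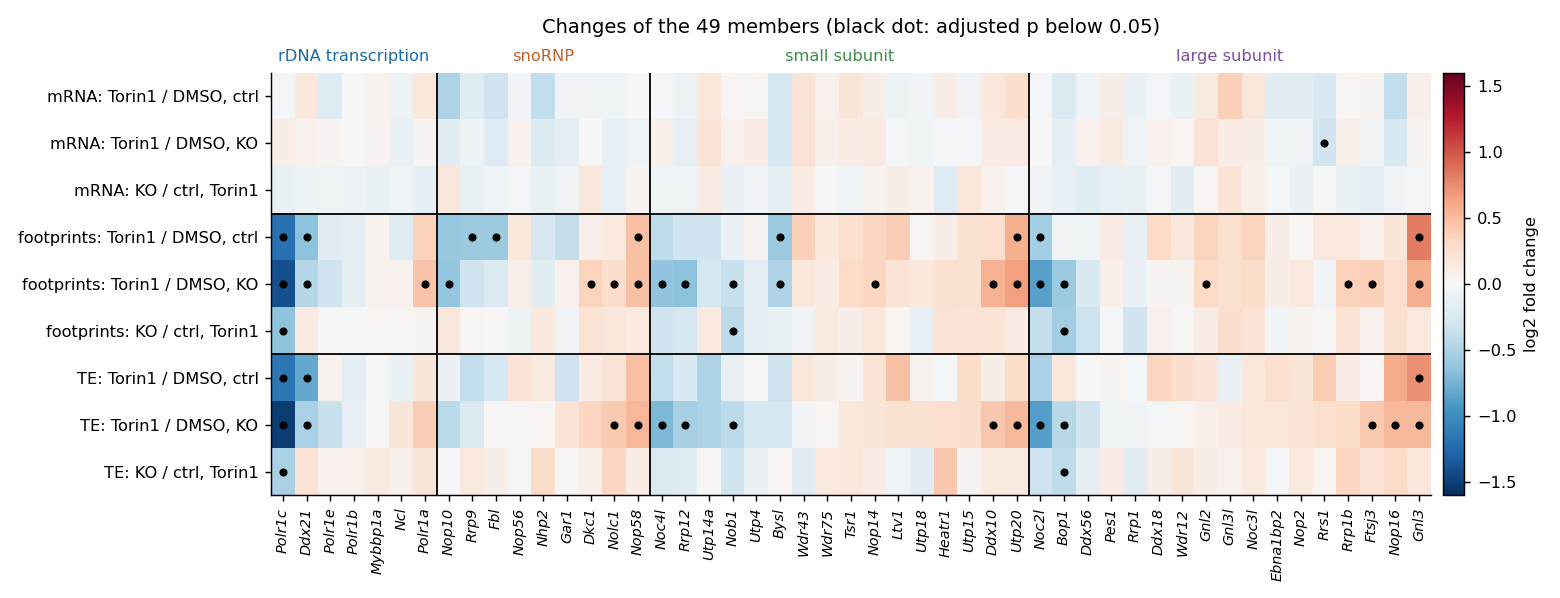
Log2 changes of mRNA, footprints and TE (edgeR) for each of the 49 members, grouped by role. Each measure is shown for Torin1 against DMSO in ctrl cells and in KO cells, and for KO against ctrl in Torin1. The mRNA changes stay within 0.5 of 0 throughout. Polr1c reaches the lowest TE change with Torin1, −1.16 in ctrl and −1.52 in KO cells.

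In large subunit processing 2 of 17 members fell and 3 rose in TE in KO cells, where 17.8% of all transcripts were lower and 10.6% higher. In ctrl cells 0 fell and 1 rose, where 4.29% of all transcripts were lower and 0.383% higher. That member was Gnl3 (nucleostemin), a nucleolar GTPase whose gene holds 3 snoRNA genes (chr14:31012433-31019152, minus strand). Its TE was 0.633 and 0.788 in ctrl DMSO, 1.18, 1.08 and 1.32 in ctrl Torin1, 1.03, 1.01 and 0.747 in KO DMSO, and 1.57, 1.25 and 1.23 in KO Torin1, without overlap in either genotype. TE rose by 0.74 ± 0.19 in ctrl (adjusted p = 0.0237) and by 0.52 ± 0.14 in KO cells (adjusted p = 0.00556, edgeR). The ctrl call was lost without ribo-seq ctrl DMSO replicate 1 or 3, ribo-seq ctrl Torin1 replicate 3, or RNA-seq ctrl DMSO replicate 1 or ctrl Torin1 replicate 1 or 3 (adjusted p = 0.0504 to 0.108, edgeR), whereas the KO call and the footprint calls of Gnl3 (0.82 ± 0.15, adjusted p = 0.000842 in ctrl; 0.57 ± 0.11, adjusted p = 0.000175 in KO, edgeR) were kept without any single library. Gnl3 mRNA overlapped between all groups, at 152 to 195 CPM in ctrl DMSO and 175 to 191 CPM in ctrl Torin1.

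Noc2l, the partner of Noc3l in large subunit precursors (chr4:156236010-156247616, plus strand), fell most. Its TE was 0.481 and 0.456 in ctrl DMSO, 0.322, 0.285 and 0.316 in ctrl Torin1, 0.481, 0.421 and 0.428 in KO DMSO, and 0.219, 0.294 and 0.221 in KO Torin1. The groups did not overlap in either genotype. The log2 TE change was −0.51 ± 0.18 in ctrl (adjusted p = 0.121) and −0.88 ± 0.13 in KO cells (adjusted p = 1.61e-05, edgeR). Noc2l footprints fell in each genotype, by 0.55 ± 0.14 (adjusted p = 0.0146) in ctrl and by 0.87 ± 0.12 (adjusted p = 7.41e-07, edgeR) in KO cells, the ctrl call being lost without ribo-seq ctrl DMSO replicate 1 (0.0797) or ctrl Torin1 replicate 2 (0.0985) or 3 (0.0733).

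Bop1 (chr15:76452989-76477277, minus strand) had a TE of 0.433 and 0.352 in ctrl DMSO, 0.418, 0.421 and 0.374 in ctrl Torin1, 0.402, 0.360 and 0.474 in KO DMSO, and 0.262, 0.307 and 0.348 in KO Torin1. The ctrl groups overlapped and the KO groups did not. TE changed by 0.18 ± 0.19 in ctrl (adjusted p = 0.711) and by −0.45 ± 0.13 in KO cells (adjusted p = 0.0142, edgeR), a call lost without ribo-seq KO Torin1 replicate 1 (−0.38, adjusted p = 0.0531) and without scaling (−0.20, adjusted p = 0.228). Its partners Pes1 and Wdr12 were not called in TE (Pes1 0.04 and −0.06, Wdr12 0.28 and 0.02 in ctrl and KO cells).

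The other TE increases of this role in KO cells were those of Nop16 (0.52 ± 0.15, adjusted p = 0.00976) and of Ftsj3, a methyltransferase of the precursor RNA (0.42 ± 0.14, adjusted p = 0.0226, edgeR). Neither footprints nor mRNA of Nop16 were called in the main fit. With the replicate block its footprints were called higher (log2 0.27, adjusted p = 0.0387) and its mRNA lower (−0.24, 0.0415, edgeR). DESeq2 also called its mRNA lower (−0.245, 0.0330). The Ftsj3 call was lost without ribo-seq KO Torin1 replicate 3, RNA-seq KO DMSO replicate 3 or RNA-seq KO Torin1 replicate 1 or 2 (0.0520 to 0.0769). Footprints of Ftsj3, Gnl2 and Rrp1b rose in KO cells by 0.38, 0.32 and 0.37. The footprint call was lost for Ftsj3 without KO DMSO replicate 1 or KO Torin1 replicate 3 (0.05002 and 0.0828), for Gnl2 without KO DMSO replicate 1 or 3 or KO Torin1 replicate 1 or 2 (0.0699 to 0.165), and for Rrp1b without any 1 of the 6 libraries (0.0526 to 0.0775). The snoRNP factor Nolc1 had a footprint rise of 0.28 in KO cells (adjusted p = 0.0393, edgeR), likewise lost without any library but KO DMSO replicate 2 (0.0554 to 0.145), and the small subunit factor Nob1 a fall of 0.35 (adjusted p = 0.0280, edgeR), lost without KO DMSO replicate 1 or 2 or KO Torin1 replicate 1 or 2 (0.0623 to 0.135).

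**Figure D3:**
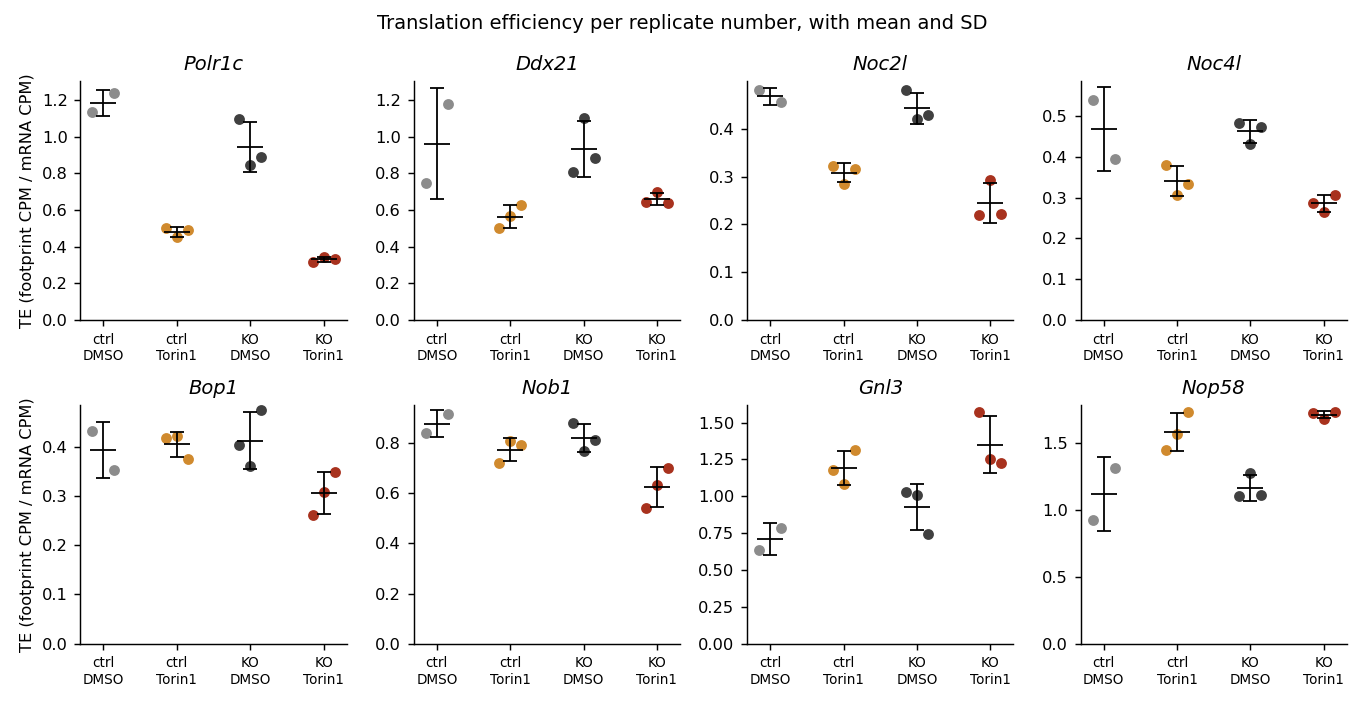
TE (footprint CPM over mRNA CPM of the same replicate) of Polr1c, Ddx21, Noc2l, Noc4l, Bop1, Nob1, Gnl3 and Nop58 in each library of the 4 conditions; points are replicates, bars the mean ± SD, and the 8 genes were chosen after their values were seen. Polr1c drops from 1.14 and 1.24 to 0.451 to 0.50 in ctrl cells, and Gnl3 climbs from 0.633 and 0.788 to 1.08 to 1.32.

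The Torin1 changes of ctrl and KO cells, which share no library, were set side by side. Across the 49 members Pearson's r between the changes was 0.810 for mRNA, 0.872 for footprints and 0.786 for TE (Spearman's rho 0.834, 0.830 and 0.672), and the sign was the same for 37, 45 and 38 of 49. These are descriptions over genes, which share gene models and libraries within each genotype and are not independent replicates. Footprint calls found in each of the genotypes were those of Bysl, Ddx21, Noc2l and Polr1c (lower) and of Gnl3, Nop58 and Utp20 (higher), and 27 members were called in neither. For TE, Polr1c and Ddx21 fell and Gnl3 rose in each genotype, while 35 members were called in neither. The correlations, shared signs and shared calls were not computed over all transcripts. They therefore show no trait particular to the members. More calls in KO than in ctrl cells do not by themselves show a different response, and the ctrl group in DMSO had 2 footprint libraries against 3. Its RNA-seq replicates also differed more from one another. Pairs of them had a chi-square per degree of freedom, against counts expected from sampling alone, of 39.2 to 59.5. In the other RNA-seq groups it was 5.18 to 23.4. Whether this lowered the number of calls in ctrl cells was not tested.

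The test of the difference itself, the interaction of genotype with Torin1, called 0 of 49 members in edgeR for mRNA (0% of all transcripts), footprints (0.113%) and TE (0%). At an unadjusted p under 0.05 the numbers were 0, 2 and 1, beside 108 of 11073, 731 of 10662 and 599 of 10443 transcripts. DESeq2 called 0 in each measure (0%, 0.347% and 0.153% of all transcripts), and limma-voom 0 in TE (0%). The interaction for Bop1 was −0.51 ± 0.18 in footprints (adjusted p = 0.469) and −0.59 ± 0.22 in TE (adjusted p = 0.754, edgeR), and that for Polr1c in TE was −0.33 ± 0.24 (adjusted p = 0.930, edgeR).

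**Figure D4:**
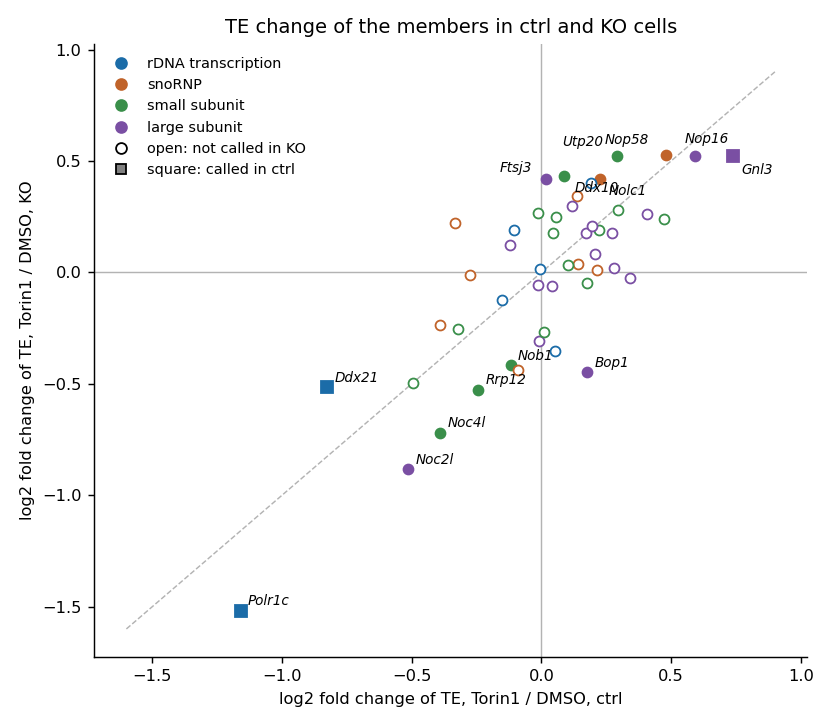
Log2 TE change with Torin1 in ctrl (x axis) against KO cells (y axis) for the 49 members (edgeR), coloured by role. Polr1c lies lowest on either axis (−1.16 and −1.52), Gnl3 is highest in ctrl (0.74), and 38 of 49 members have the same sign on the 2 axes.

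Between genotypes in DMSO, no member was called in fits without the replicate number as a block. With that block 3 members were called lower and 1 higher in mRNA (edgeR), where 2.47% of all transcripts were lower and 5.46% higher. Without the block, the edgeR test called 0 of 49 in mRNA (0.0183% of all transcripts), footprints (0.0279%) and TE (0%). There were 4, 5 and 2 at an unadjusted p under 0.05, beside 646 of 10924, 850 of 10757 and 426 of 10475 transcripts. DESeq2 called 0 in each (0.192%, 0.0279% and 0% of all transcripts), and limma-voom 0 in TE (0%). The median KO against ctrl change of the members was −0.07 in mRNA, 0.00 in footprints and 0.03 in TE.

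In Torin1, 3 members had fewer footprints in KO than in ctrl cells and 0 had more, where 4.01% of all transcripts were lower and 2.02% higher. In TE 2 members were lower and 0 higher, where 2.26% of all transcripts were lower and 0.59% higher. DESeq2 also called Heatr1 (log2 0.44, adjusted p = 0.0325) and Nolc1 (0.33, 0.0249) higher, where it called 3.44% of all transcripts lower and 1.37% higher. With the replicate number as a block edgeR called these 2 higher as well (0.0170 and 0.00682). In mRNA 0 members were called (1.96% of all transcripts), and DESeq2 called 2 (3.11%). There were 19 at an unadjusted p under 0.05, beside 1954 of 11007 transcripts.

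The members lower in footprints were Polr1c, Bop1 and Nob1. Polr1c footprints were 83.2, 71.7 and 81.7 CPM in ctrl Torin1 and 49.8, 51.7 and 49.1 CPM in KO Torin1, a log2 difference of −0.64 ± 0.15 (adjusted p = 0.00447, edgeR). Those of Bop1 were 208, 211 and 198 CPM against 126, 137 and 159 CPM (−0.55 ± 0.11, adjusted p = 0.00156, edgeR). In each pair the KO libraries lay below the ctrl libraries without overlap, and these calls were kept without any single library. Nob1 footprints were 114, 123 and 127 CPM against 80.6, 89.1 and 103 CPM (−0.42 ± 0.13, adjusted p = 0.0366, edgeR), a call lost without ribo-seq KO Torin1 replicate 1 or 2 or ctrl Torin1 replicate 2 or 3 (0.105 to 0.168), with DESeq2 (0.0790) and with all 4 conditions in 1 fit (0.0648).

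In TE the lower members in KO Torin1 were Polr1c (−0.52 ± 0.13, adjusted p = 0.0256) and Bop1 (−0.41 ± 0.11, adjusted p = 0.0461, edgeR). Each rested on single libraries. That of Bop1 was kept only when ribo-seq KO Torin1 replicate 3 or ctrl Torin1 replicate 3 was left out, and lost without ribo-seq KO Torin1 replicate 1 or 2, ribo-seq ctrl Torin1 replicate 1 or 2, or any of the 6 RNA-seq libraries (adjusted p = 0.0590 to 0.141, edgeR). That of Polr1c was lost without ribo-seq KO Torin1 replicate 1, ribo-seq ctrl Torin1 replicate 1 or 3, RNA-seq KO Torin1 replicate 1 or RNA-seq ctrl Torin1 replicate 2 (adjusted p = 0.0555 to 0.0628, edgeR). With limma-voom neither was called (adjusted p = 0.0806 for Polr1c and 0.0648 for Bop1), nor with all 4 conditions in 1 edgeR fit (0.193 and 0.291). Each was kept in the other 4 of 6 alternatives: DESeq2, no scaling, no filter, and the replicate number as a block (0.0199 for Polr1c and 0.0113 for Bop1, edgeR).

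Because eIF4E3 binds the mRNA cap, the length of the transcript leader (5′ TL) was set beside the TE changes. In the GENCODE M21 models of the listed transcripts the 5′ TLs of the members ran from 21 nt (Nob1) to 375 nt (Rrp1b), with a median of 102 nt, beside 99 nt for the ribosomal proteins, 87 nt for the other biogenesis genes and 171 nt for all transcripts. Across the 49 members Spearman's rho between 5′ TL length and the TE change reached 0.357 in ctrl and 0.591 in KO cells treated with Torin1. It was −0.0636 and 0.0427 across the other biogenesis genes, 0.102 and 0.138 across the ribosomal proteins, and 0.169 and 0.258 across all transcripts with a 5′ TL. For the KO against ctrl difference in TE it was 0.368 in Torin1 and −0.0170 in DMSO across the members, and 0.108 and −0.0871 across all transcripts. The points of each correlation share libraries and annotated, not measured, leaders. The mRNA change with Torin1 had a rho of −0.0796 in ctrl and −0.239 in KO cells with the 5′ TL.

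Of the 7 members that fell in TE in KO cells, each had a 5′ TL of 21 to 96 nt (Nob1 21, Noc2l 35, Bop1 56, Ddx21 67, Noc4l 78, Polr1c 91, Rrp12 96). Of the 7 that rose, 6 had one of 123 to 345 nt (Nop16 123, Utp20 154, Nolc1 167, Nop58 205, Gnl3 211, Ftsj3 345), and Ddx10 had one of 50 nt. Split at 100 nt, a border chosen after the values were seen, the 23 members with shorter 5′ TLs had a median log2 TE change of −0.27 in KO and −0.01 in ctrl cells, and the 26 with longer ones of 0.24 and 0.20. Over all transcripts the corresponding KO medians were −0.19 and 0.06. Among the shorter ones 7 members fell and 1 rose in KO cells, beside 737 lower and 117 higher of 2811 transcripts. Among the longer ones 0 fell and 6 rose, beside 1129 lower and 998 higher of 7687. The length of the coding sequence (rho 0.103), the mean TE in ctrl DMSO (0.251) and the mRNA level per kilobase of coding sequence (−0.245) had smaller coefficients with the members' TE change in KO cells, a difference that was not tested.

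**Figure D5:**
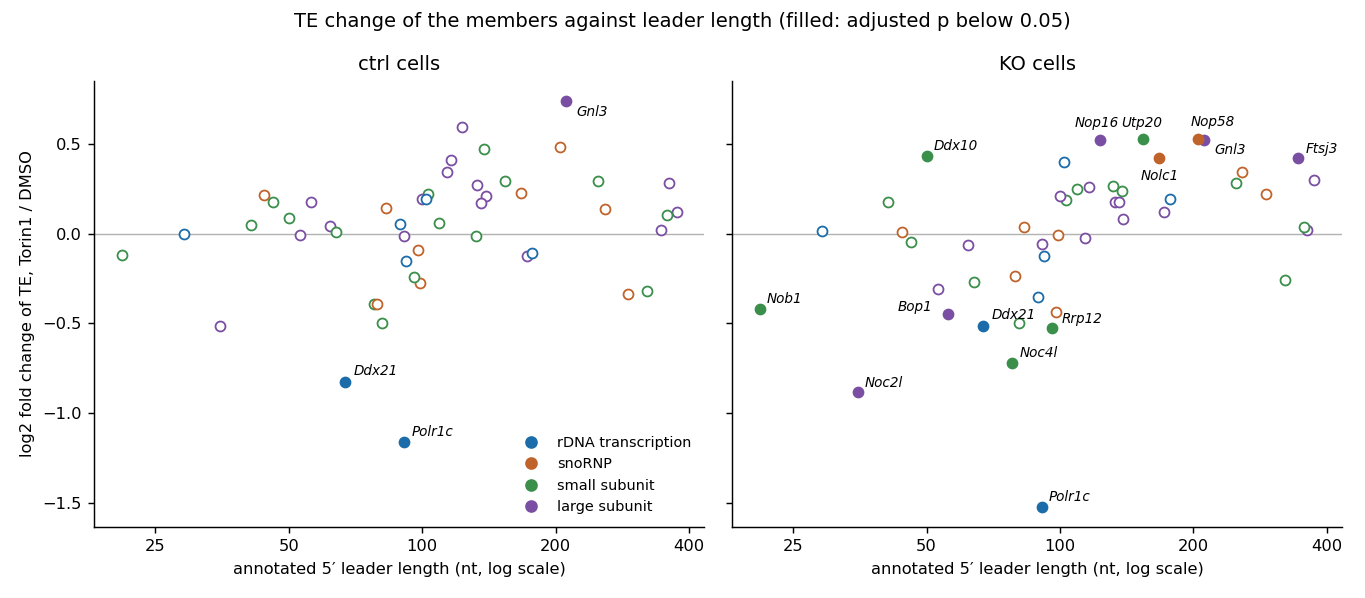
Log2 TE change with Torin1 (edgeR) of the 49 members against the length of their annotated 5′ TL (log axis, nt), in ctrl and KO cells. In KO cells the 7 members called lower lie at 21 to 96 nt and 6 of the 7 called higher at 123 to 345 nt.

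As a whole the members took 1.26 to 1.33% of the mRNA reads in each of the 12 RNA-seq libraries. Their share of all footprints was 0.940 and 1.27% in ctrl DMSO, 1.18 to 1.29% in ctrl Torin1, 0.983 to 1.08% in KO DMSO and 1.23 to 1.28% in KO Torin1. The KO groups did not overlap, and the means of 1.02 ± 0.0535% and 1.26 ± 0.0237% (SD, n = 3) gave p = 0.1 in a two-sided exact permutation test, the smallest that 3 against 3 allows. In ctrl cells p was 0.4. This share is relative to the other footprints, and the ribosomal proteins' own share went from 7.81 to 8.62% in KO DMSO to 2.42 to 2.71% in KO Torin1, and from 9.40 and 8.11% to 2.62 to 3.13% in ctrl cells. After scaling between libraries, the members' summed footprints in KO cells were 11174 ± 747 CPM in DMSO and 11673 ± 228 CPM with Torin1 (SD, n = 3; p = 0.4, exact permutation test). The median TE of the members was 0.745 and 0.908 in ctrl DMSO, 0.792 to 0.832 in ctrl Torin1, 0.845 to 0.879 in KO DMSO and 0.853 to 0.886 in KO Torin1, while that of the ribosomal proteins went from 1.25 and 1.30 to 0.331 to 0.385 in ctrl cells.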

How the data were processed

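Read counts per transcript were deposited by the authors, who per the paper's methods trimmed reads with cutadapt, mapped them against mm10 (HISAT2) and then the canonical transcripts of Ensembl (Bowtie2), and for ribo-seq counted P-sites over coding sequences. These raw counts were the only unit used. The deposited TE tables and the columns of fold changes and p-values hold the authors' own comparisons and were not used. Columns were matched to samples by name. In 1 RNA-seq table (KO against ctrl in DMSO) column names repeat a number, so its columns were assigned to groups only.

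Transcripts with over 1 CPM in every library of at least 1 condition compared were kept and tested with edgeR 4.0.16 (TMM scaling, quasi-likelihood F test, Benjamini-Hochberg threshold 0.05) in R 4.3.3, per assay for mRNA and footprints and as the interaction of assay with condition for TE, with scaling within each assay. The SE is the log2 change divided by the square root of F. Scripts were tested on simulated data. Alternatives were DESeq2 1.42.0, limma-voom 3.58.1 (TE), no scaling beyond library size, no filter, all 4 conditions in 1 fit, the replicate number as a block, and leaving out each library. Leader lengths came from GENCODE M21 (GRCm38), matched by transcript ID for 12703 of 12759.

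Per the labels each replicate is a different passage, but they do not say that a number marks the same passage in different groups, and not every same-numbered pair correlated, so samples were not treated as paired. The passages belong to 1 pool per genotype, so p-values measure the spread between passages.

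Members and lists were chosen with earlier results of these data known. The members described library by library were, per role, those with the largest TE decrease and increase with Torin1 in each genotype, all called between genotypes, and the 2 highest and 2 lowest in TE in ctrl DMSO. Ddx21, Rrs1, Fbl and Rrp12 were added after their values were seen. The paralogs Utp14a and Utp14b, Rrp1 and Rrp1b, and Gnl3 and Gnl3l may share reads, which the sources used here do not settle.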

Additional observations from a re-analysis of the deposited data

How the results depend on the processing

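No result reversed its direction past the threshold under any alternative. Numbers of members called moved as follows. Percentages are of all transcripts called under the same alternative and are not given for left-out libraries. For Torin1 in ctrl cells, mRNA calls (0) became 2 with DESeq2 (6.6%), 4 with all conditions in 1 fit (11%) and 0 to 4 leaving out 1 library. Those with DESeq2 and with all conditions were all lower. The TE calls (3) became 6 with all conditions (8.15%), 1 with limma-voom (3.74%) and 1 to 4 leaving out 1 library, and footprint calls (9) 2 to 13. For Torin1 in KO cells, mRNA calls (1) became 4 with DESeq2 (13.2%), 0 with all conditions (5.03%) and 0 to 3 leaving out 1 library. Without scaling footprint calls (20) became 33 (49%) and TE calls (14) became 24 (36.9%). Leaving out 1 library gave 14 to 19 and 11 to 17 of these. For KO against ctrl in Torin1, mRNA calls (0) became 2 with DESeq2 (3.11%) and 0 to 1 leaving out 1 library. The TE calls (2) became 4 with DESeq2 (4.81%), 0 with all conditions (0.694%), 0 with limma-voom (1.47%) and 0 to 2 leaving out 1 library. The calls added by DESeq2, Heatr1 and Nolc1, were higher. The footprint calls (3) became 2 with DESeq2 (3.91%), 2 with all conditions (3.89%) and 2 to 3 leaving out 1 library. With DESeq2 the footprint calls of Bysl, Rrp9 and Utp20 in ctrl and of Nob1 and Rrp1b in KO cells were lost too, with limma-voom the TE calls of Gnl3 in ctrl and Utp20 in KO cells, and with all conditions the KO calls of Ddx10 and Utp20 in TE and Rrs1 in mRNA. The causes were not tested. Footprint depth limits Polr1e, with 18 footprints in 1 library.

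By the labels, same-numbered replicates share only a number, and whether they share more was not settled. Deviations from group means correlated at −0.0369 to 0.671 between same-numbered RNA-seq libraries and −0.0397 to 0.137 in ribo-seq, and 11 of 12 and 8 of 11 libraries correlated best with their own number, a hint from the data and not the design. With the replicate number as a block, mRNA calls became 4 in ctrl with Torin1 (12.1% of all transcripts), 5 in KO cells with Torin1 (16.3%), 4 between genotypes in DMSO (7.93%) and 11 between genotypes in Torin1 (9.46%). Those between genotypes in DMSO were Gnl3l, higher in KO (log2 0.52, adjusted p = 0.000412), and 3 lower ones. These were Ddx56 (−0.31, 0.0312), Nhp2 (−0.30, 0.0384) and Wdr12 (−0.30, 0.0439, edgeR). Of the 11 in Torin1, 8 were lower and 3 higher. For KO against ctrl in DMSO the block used the numbered columns of the Torin1 tables, which hold the DMSO libraries as well. Footprint calls for KO against ctrl in Torin1 became 5 (7.19%) and TE calls 4 (5.15%). The other counts stayed within 1.5 times.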

Other observations

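CACGTG, the E-box that MYC family factors are known to bind and that reads the same on either strand, was searched in the RefSeq promoters (GRCm38.p6, 250 bases before to 50 after the annotated start). It was found in 9 of 43 members (20.9%), namely Ltv1, Mybbp1a, Nop2, Pes1, Tsr1, Utp18, Utp20, Utp4 and Wdr43. The share was 20.7% in the other ribosome biogenesis genes (17 of 82), 6 of 60 in the ribosomal protein genes, 11.6% in all genes listed in the count tables (1165 of 10072) and 8.09% in all promoters. Of these 9 members, Utp20 was called in TE with Torin1 in KO cells. Small nucleolar RNA genes lie within 7 of the 49 member genes, 21 in all: 5 in Nop56, 4 in Nop58, 3 each in Ncl, Wdr43 and Gnl3, 2 in Tsr1 and 1 in Dkc1. Nop58 and Gnl3 are the hosts whose TE rose with Torin1 in KO cells, and Gnl3 the host whose TE rose in ctrl cells. Among member coding sequences, that of Pes1 overlaps another gene's coding sequence, by 115 nt. These are descriptions of the annotation, chosen after the values were seen.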
